A study of Mus musculus with 8 samples.

Results

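Serotonin acts on a family of receptors encoded by separate genes, and 8 of them were followed here across the neurons and glia of the mouse anterior hippocampus and caudate putamen at 3 and 21 months of age. The genes were Htr1a, Htr1b, Htr1f, Htr2a, Htr2c, Htr4, Htr5a and Htr7, taken by symbol from the gene tables of the count matrices. They were 8 of 32285 genes measured, and all 8 were found. The data were single-nucleus RNA libraries from left hemisphere punches of C57BL/6JN mice. There were 4 groups of 2 libraries each: hippocampus at 3 months, hippocampus at 21 months, caudate putamen at 3 months and caudate putamen at 21 months. The labels give no treatment and no engineered allele for any of them, and all mice were of this 1 strain. Nuclei from 1 male and 1 female of the same age were pooled in each library, so the sexes were not separated here. With 2 libraries per group, p-values of age and region measure the spread between pooled pairs of mice. Those between classes measure the spread of the class difference within libraries. The labels do not say whether both regions came from the same animals.

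Serotonin is released in both regions by axons of raphe neurons of the brainstem. The 5-HT1 and 5-HT5 receptors couple to Gi/o proteins, which lower cyclic AMP and open potassium channels. The 5-HT2 receptors couple to Gq/11 and phospholipase C, and the 5-HT4, 5-HT6 and 5-HT7 receptors couple to Gs and raise cyclic AMP, whereas the 5-HT3 receptors are ion channels. In the hippocampus the 5-HT1A receptor is known for inhibition of pyramidal and granule neurons, and the 5-HT4 receptor of dentate granule neurons is known for its part in the response to antidepressants. In the striatum the 5-HT1B receptor sits on the axon terminals of medium spiny neurons, and the 5-HT2C receptor is also the abundant serotonin receptor of the choroid plexus.

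Total counts of unique molecular identifiers (UMIs) ranged from 67205436 to 234811422 per library. Of 109826 barcodes, 97744 nuclei were retained, with 6387 to 17013 per library and median UMIs per nucleus between 6664 and 11276.5. Any 2 libraries shared between 21 and 146 barcodes, at most 0.774% of the smaller library. Every gene whose symbol begins with Htr was kept out of the clustering, so that no receptor could define a class. Clusters were then named from marker genes, and each class name stands for nuclei that resemble that type. The check of the classes against their markers found all markers highest in the class for oligodendrocytes, Pvalb/Pthlh and cholinergic interneurons and choroid plexus. Fewer were highest in the class for D1 (3 of 7), D2 (4 of 6) and eccentric medium spiny neurons (3 of 4). The same held for CA1 neurons (4 of 7) and for Adarb2 and Lhx6/Sox6 interneurons (5 of 8 each). The fewest were found for the thalamic or habenular neurons of the caudate putamen (1 of 4). A total of 6709 nuclei stayed unnamed, and no cluster was named hilar mossy cell.

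The libraries differed in the cell types they held. In the caudate putamen, choroid plexus nuclei (71 and 61) were found in the first library of each age and in neither second library. Ttr, the abundant transcript of choroid plexus, stood at 54.3 CPM (counts-per-million, the UMIs of a gene over all UMIs of the class in that library) in D2 neurons of the first young library and 35.4 CPM in the first old library, against 0.016 and 0.051 CPM in the second libraries. The class of cortical glutamatergic neurons, which a striatal punch can include, held 207 and 69 nuclei in the young libraries and 107 and 164 in the old ones. In the hippocampus, the second old library stood apart with Ttr at 12.4 CPM in dentate granule neurons, against at most 0.13 CPM in the other 3 libraries.

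The 8 genes differ in how much transcribed sequence a nucleus can offer for counting. In the GENCODE vM21 annotation of GRCm38, Htr1a (ENSMUSG00000021721, chr13:105443639-105448122, plus strand) and Htr1b (ENSMUSG00000049511, chr9:81628291-81633828, minus strand) each have 1 exon and span 4.48 and 5.54 kb. Htr1f (ENSMUSG00000050783, chr16:64924729-65105854, minus strand) spans 181.1 kb with 3 exons, of which 1 is coding, and Htr2c (ENSMUSG00000041380, chrX:146962513-147197277, plus strand) spans 234.8 kb with 6 exons, of which 4 are coding. Htr2a (ENSMUSG00000034997, chr14:74640840-74709494, plus strand) spans 68.7 kb, Htr7 (ENSMUSG00000024798, chr19:35958734-36057507, minus strand) 98.8 kb, Htr5a (ENSMUSG00000039106, chr5:27842149-27855088, plus strand) 12.9 kb and Htr4 (ENSMUSG00000026322) 172.4 kb. Whether intronic reads were counted is not given in the sources used here, and long genes gather more UMIs from nuclei if they were. Levels are therefore compared between classes for 1 gene at a time, and between genes only as CPM per kb of gene span.

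Promoter sequences of 7 of the 8 genes were found in the RefSeq table for GRCm38.p6, and 3 are printed because the results below turn on these genes. Htr2a and Htr7 were both high in 1 cluster of D2 and 1 of eccentric medium spiny neurons, and Htr2c had the age difference with the lowest adjusted p. Each line gives the 100 bases before the annotated start, 5′ to 3′ on the strand of the gene. Htr2a is read from chr14:74640740-74640839 (plus), Htr7 from chr19:36057508-36057607 (minus) and Htr2c from chrX:146962413-146962512 (plus). Capitals mark motif matches.
Htr2a: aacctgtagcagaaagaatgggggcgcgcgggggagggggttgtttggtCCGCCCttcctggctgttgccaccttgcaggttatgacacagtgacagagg
Htr7: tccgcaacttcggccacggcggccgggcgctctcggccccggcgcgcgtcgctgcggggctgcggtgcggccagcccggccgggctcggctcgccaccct
Htr2c: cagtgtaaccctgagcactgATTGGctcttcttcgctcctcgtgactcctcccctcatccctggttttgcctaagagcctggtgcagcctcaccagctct
The motifs searched on both strands were the TATA box (TATAAA), the CCAAT box (CCAAT), the GC box (GGGCGG), the cyclic AMP response element (TGACGTCA) and the E box (CANNTG). Htr2a held 1 GC box, a motif found in 24.7% of the 32851 promoters of the table at this length. Htr2c held 1 CCAAT box, found in 18.9% of them, and Htr7 held none of the 5 motifs. The GC content was 83% for Htr7, 60% for Htr2a and 57% for Htr2c, against a median of 55% over all promoters.

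**Figure D1:**
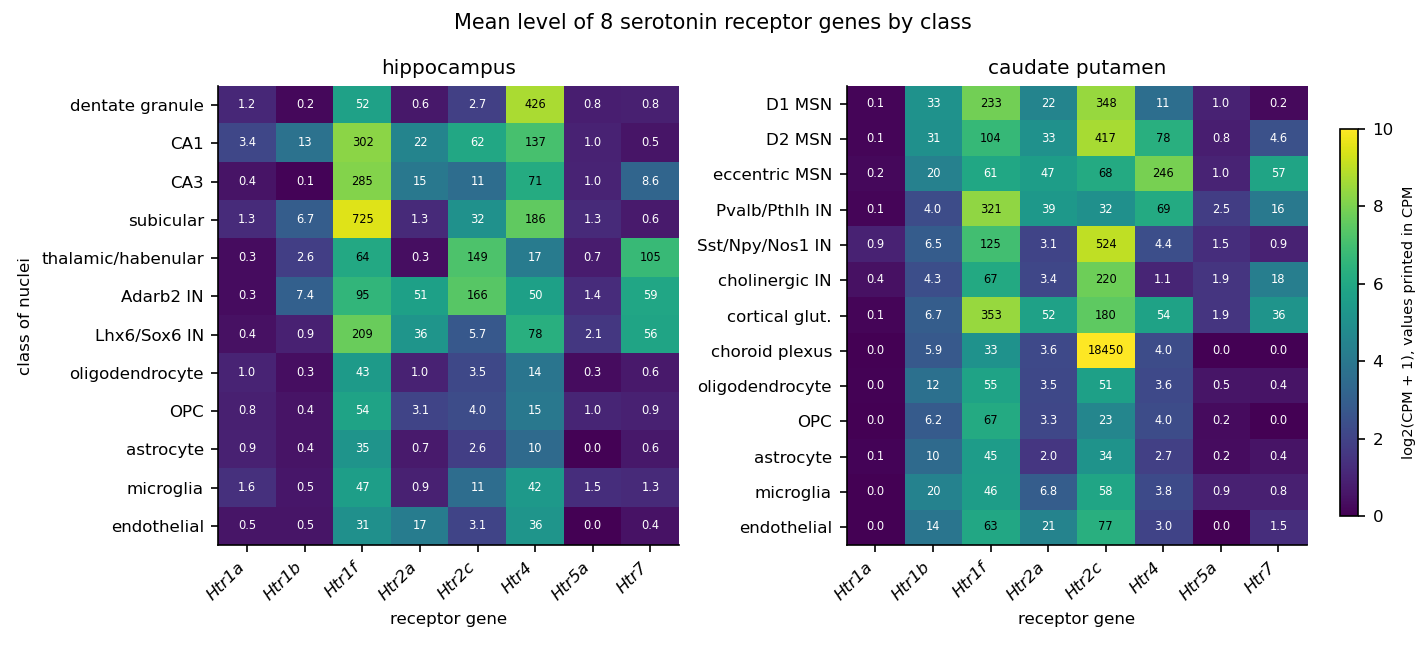
Mean level of the 8 receptor genes (columns) in classes of hippocampus and caudate putamen (rows), coloured by log2(CPM + 1) with the mean CPM over libraries printed in each cell. Levels should be compared down a column: Htr4 is highest in dentate granule neurons (426 CPM), Htr1f in subicular neurons (725 CPM) and Htr1b in D1 and D2 medium spiny neurons (33.1 and 31.1 CPM).

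The receptors differed in the classes where they were highest, as the plot of mean levels by class shows, and several classes were high in more than 1 receptor. The differences between classes within a region were tested with the edgeR quasi-likelihood test on class sums with library as a covariate, with Benjamini-Hochberg adjustment across every gene in the comparison. In the hippocampus 20 of 28 tested pairs of receptor and class comparison passed an adjusted p of 0.05, 12 higher and 8 lower (of 32 possible pairs), where 40% of all gene and comparison pairs passed. In the caudate putamen 20 of 30 pairs passed, 8 higher and 12 lower (of 40 possible), where 38.2% of all pairs passed. Classes differ in a large part of all genes, so these counts are read beside those shares.

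Levels below are given in CPM, and where 4 values are listed they come from young library 1, young library 2, old library 1 and old library 2. Differences are log2 values ± standard error (SE), and means are given ± standard deviation (SD) with n as the number of libraries.

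Between CA1 pyramidal and dentate granule neurons, 5 receptors were higher in CA1 and 1 was lower, of 7 tested, where 54% of all genes passed, and the median difference was 2.65 over the receptors and -0.017 over all genes. Between CA3 and dentate granule neurons 4 were higher in CA3 and 1 lower of 7 (52.9% of all genes), with a median of 2.14 against -0.037. Between CA3 and CA1 neurons 1 was higher in CA3 and 5 were lower of 7 (38.4%), with a median of -0.85 against -0.020. Between Adarb2 and Lhx6/Sox6 interneurons, the types that arise from the caudal and the medial ganglionic eminence, 2 were higher in Adarb2 and 1 lower of 7 (14.8%), with a median of 0.080 against 0.0048.

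Among striatal neurons, D2 against D1 medium spiny neurons gave 2 receptors higher and 1 lower of 6 tested, where 5.91% of all genes passed, with a median of 0.44 over the receptors and -0.0043 over all genes. Eccentric medium spiny neurons, a separate group of striatal projection neurons, against D1 neurons gave 3 higher and 3 lower of 6 (28.8% of all genes). Against the same D1 neurons, Pvalb/Pthlh interneurons gave 2 higher and 2 lower of 6 (58.4%), Sst/Npy/Nos1 interneurons 0 higher and 3 lower of 6 (48.1%) and cholinergic interneurons 1 higher and 3 lower of 6 (50%). These 5 comparisons share the D1 neurons, and the cholinergic one had 3 libraries because old library 1 held only 19 such nuclei.

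Htr1a encodes the 5-HT1A receptor and was scarce in all classes. CA1 neurons held 3.07, 3.41, 3.11 and 3.85 CPM, a narrow range with no separation by age. Dentate granule neurons held 1.36, 2.12, 0.642 and 0.647 CPM, and CA3 neurons 0.453, 1.28, 0 and 0 CPM. The level in CA1 was higher than in the dentate gyrus by 1.50 ± 0.28 (adjusted p = 1.56e-05), and that in CA3 was lower than in CA1 by 2.51 ± 0.48 (log2 difference -2.51, adjusted p = 5.59e-05). The highest class mean, 7.57 ± 9.81 CPM in pericytes or smooth muscle cells (n = 3), rested on few UMIs. In the caudate putamen the gene did not reach the test in any comparison of neuron classes.

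Htr1b encodes the 5-HT1B receptor, which in striatal projection neurons is carried to the axon terminals. D1 neurons held 33.3, 32.9, 34.4 and 32.0 CPM and D2 neurons 32.8, 30.8, 31.8 and 29.1 CPM. The ranges overlapped, and the difference between D2 and D1 was -0.070 ± 0.14 (adjusted p = 0.99). The age differences were -0.023 ± 0.075 in D1 and -0.083 ± 0.076 in D2 (adjusted p = 0.90 and 0.55). Eccentric neurons were lower than D1 by 0.79 ± 0.18 (log2 difference -0.79, adjusted p = 0.0014), at 18.5, 17.4, 23.2 and 20 CPM. The interneurons lay lower still, with differences from D1 of -3.26 ± 0.30 in Pvalb/Pthlh (adjusted p = 2.01e-09), -2.60 ± 0.34 in Sst/Npy/Nos1 (6.81e-07) and -3.00 ± 0.41 in cholinergic neurons (1.40e-06).

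In the hippocampus Htr1b was highest in CA1, subicular and Adarb2 neurons and was close to 0 in CA3. CA1 neurons held 12.4, 12.6, 11.8 and 13.7 CPM, whereas CA3 neurons held 0.227, 0, 0 and 0 CPM, a total of 1 UMI. Subicular neurons held 9.79, 7.28, 5.62 and 4.12 CPM. Over all libraries CA1 had 586 UMIs and a level 235 times that of CA3, with an exact 95% counting interval from 42.0 to 9290. CA1 was higher than the dentate gyrus by 6.08 ± 0.29 (adjusted p = 6.59e-18). Adarb2 interneurons were higher than Lhx6/Sox6 interneurons by 2.32 ± 0.70 (adjusted p = 0.020), at 3.61, 2.47, 14.1 and 9.24 against 2.50, 1.09, 0 and 0 CPM. That call was lost without old library 1 (1.65, adjusted p = 0.17) or old library 2 (1.86, adjusted p = 0.13), the libraries with the highest values, and it was 3.18 and 2.93 without young library 1 and 2.

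Htr1f encodes the 5-HT1F receptor, the target of lasmiditan in migraine treatment, and it was tested with age in 12 hippocampal and 11 caudate putamen classes. Subicular neurons held 572, 660, 925 and 742 CPM, with a mean of 725 ± 151 (n = 4), and no library of the next class, cortical glutamatergic neurons of the caudate putamen (353 ± 138), reached that range. Below them Pvalb/Pthlh interneurons (321 ± 51.0), CA1 (302 ± 57.3) and CA3 neurons (285 ± 44.1) followed with overlapping ranges. CA1 and CA3 were both higher than the dentate gyrus, by 2.65 ± 0.22 (adjusted p = 3.79e-10) and 2.63 ± 0.22 (5.71e-10), while CA3 and CA1 differed by -0.020 ± 0.21 (adjusted p = 0.96). Lhx6/Sox6 interneurons held more than Adarb2 interneurons, a difference of -1.22 ± 0.24 (adjusted p = 0.00085) that did not pass without young library 2 (-1.06, adjusted p = 0.058).

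Htr1f also separated the striatal projection neurons. D1 neurons held 252, 216, 247 and 219 CPM and D2 neurons 107, 93.3, 113 and 102 CPM, so every D1 value lay above every D2 value. The D2 level was lower by 1.15 ± 0.19 (log2 difference -1.15, adjusted p = 0.00019), that of eccentric neurons was lower than D1 by 2.01 ± 0.20 (-2.01, 5.69e-08), that of Sst/Npy/Nos1 interneurons by 1.22 ± 0.20 (-1.22, 3.69e-05) and that of cholinergic interneurons by 2 ± 0.24 (4.76e-07). Pvalb/Pthlh interneurons differed from D1 by 0.25 ± 0.19 (adjusted p = 0.26).

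Htr5a encodes the 5-HT5A receptor. It stayed at or under 5.82 CPM in every class and library, with the highest mean of 2.50 CPM in Pvalb/Pthlh interneurons. No comparison of classes reached the test.

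Htr2a encodes the 5-HT2A receptor, the main target of psychedelic drugs. No class stood clear of the next: cortical glutamatergic neurons (51.8 ± 35.0 CPM), Adarb2 interneurons (50.6 ± 18.4), eccentric neurons (47.0 ± 5.07), Pvalb/Pthlh interneurons (38.9 ± 6.72), Lhx6/Sox6 interneurons (36.3 ± 15.2) and D2 neurons (32.6 ± 6.36) followed each other with overlapping ranges (n = 4 each). The cortical values of 24.8, 82.6, 18.3 and 81.4 CPM split by replicate and not by age. CA1 held 18.6, 21.8, 21.9 and 24.1 CPM and CA3 12, 14.8, 16.1 and 16.5 CPM, both well above the dentate gyrus, with differences of 5.21 ± 0.16 (adjusted p = 3.54e-24) and 4.77 ± 0.21 (5.29e-20). CA3 was lower than CA1 by 0.44 ± 0.16 (log2 difference -0.44, adjusted p = 0.024), a call lost without either young library (adjusted p = 0.10 and 0.12), with DESeq2 (0.21) and with doublets kept (0.091).

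Striatal Htr2a was higher in eccentric than in D1 neurons by 1.07 ± 0.32 (adjusted p = 0.015), which did not pass without young library 2 (1.02, adjusted p = 0.10). Sst/Npy/Nos1 and cholinergic interneurons were lower than D1 by 3.12 ± 0.83 (log2 difference -3.12, adjusted p = 0.0040) and 2.88 ± 0.90 (-2.88, 0.012), the second of which did not pass without young library 2 (-2.79, adjusted p = 0.070). D2 and D1 neurons differed by 0.59 ± 0.28 (adjusted p = 0.37). Outside neurons, hippocampal endothelial cells held 17.1, 13.8, 21.0 and 17.3 CPM, from 13, 7, 26 and 3 UMIs, and those of the caudate putamen held 3.25, 42.8, 13.2 and 25.0 CPM, from 1, 12, 5 and 4 UMIs.

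Htr2c encodes the 5-HT2C receptor. Choroid plexus nuclei held 18379 CPM in the young library and 18522 CPM in the old one, and no other class came near that level. Among named neuron classes, Sst/Npy/Nos1 interneurons (583, 456, 672 and 384 CPM), D2 neurons (430, 391.8, 470 and 376) and D1 neurons (363, 328, 379 and 322) had overlapping ranges at the top. Neither D2 (0.28 ± 0.32, adjusted p = 0.93) nor Sst/Npy/Nos1 neurons (0.25 ± 0.33, adjusted p = 0.56) passed the test against D1.

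Eccentric neurons held less Htr2c than D1 neurons, by 2.40 ± 0.35 (log2 difference -2.40, adjusted p = 2.56e-05), and so did Pvalb/Pthlh interneurons, by 3.67 ± 0.40 (-3.67, 1.67e-07), which moved to -0.96 with doublets kept. Cholinergic interneurons, at 258, 212 and 189 CPM, differed by -0.73 ± 0.38 (adjusted p = 0.12). In the hippocampus the 4 Adarb2 values of 174, 171, 141 and 179 CPM lay far above the Lhx6/Sox6 values of 8.12, 4.92, 4.85 and 4.82 CPM, a difference of 4.84 ± 0.65 (adjusted p = 1.14e-05). A single nucleus held between 12.9% and 28.2% of the Htr2c UMIs of the Adarb2 class in each library.

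CA1 was higher than the dentate gyrus in Htr2c by 4.42 ± 0.38 (adjusted p = 1.37e-09). CA3 neurons held 24.5, 4.42, 2.61 and 12.5 CPM, a spread that did not follow age, and were lower than CA1 by 2.28 ± 0.46 (log2 difference -2.28, adjusted p = 0.00035). CA3 was also higher than the dentate gyrus by 2.14 ± 0.57 (adjusted p = 0.0031). That call rested on young library 1, the highest of the 4, without which the difference was 1.38 (adjusted p = 0.14), while it was 2.81 without young library 2. Thalamic or habenular neurons caught in the hippocampal punches held 165, 154, 200 and 76.1 CPM.

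Htr4 encodes the 5-HT4 receptor, and its highest class was the dentate gyrus. Granule neurons held 427, 388, 461 and 426 CPM, a mean of 426 ± 29.5 (n = 4), above every library of the next class, eccentric medium spiny neurons (246 ± 50.8). Subicular neurons held 168, 207, 212 and 156 CPM. CA1 and CA3 were lower than the dentate gyrus by 1.55 ± 0.29 (log2 difference -1.55, adjusted p = 8.27e-05) and 2.40 ± 0.31 (-2.40, 7.65e-07). CA3 was lower than CA1 by 0.85 ± 0.30 (-0.85, adjusted p = 0.032), a call lost without old library 1 (-0.70, adjusted p = 0.17) or old library 2 (-0.86, 0.080) and with DESeq2 (0.078).

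Htr4 set D2 and eccentric neurons apart from D1 neurons. D2 neurons held 88.0, 53.6, 106 and 64.1 CPM and D1 neurons 18.3, 1.88, 21.1 and 3.85 CPM, so that the classes did not overlap although both were higher in the first library of each age. The D2 difference was 3.55 without young library 1 and 3.56 without old library 1. The differences from D1 were 3.17 ± 0.45 in D2 (adjusted p = 8.91e-05), 4.82 ± 0.49 in eccentric neurons (2.85e-07) and 2.85 ± 0.49 in Pvalb/Pthlh interneurons (6.59e-05). Sst/Npy/Nos1 and cholinergic interneurons did not pass (-1.47 ± 1.15, adjusted p = 0.32, and -3.11 ± 1.89, 0.19).

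Htr7 encodes the 5-HT7 receptor and was high in thalamic or habenular neurons, at 92.9, 92.1, 119 and 114 CPM. The few such nuclei of the caudate putamen, in 1 library, held 65.7 CPM, in a class with 1 of 4 markers highest. Adarb2 (59.4 ± 7.86), eccentric (56.5 ± 11.2) and Lhx6/Sox6 neurons (55.6 ± 25.3) followed with overlapping ranges (n = 4 each). CA3 neurons, at 14.5, 7.27, 3.04 and 9.65 CPM, were higher than CA1 by 3.90 ± 0.48 (adjusted p = 4.94e-07) and than the dentate gyrus by 3.56 ± 0.36 (1.07e-08), while CA1 and the dentate gyrus differed by -0.34 ± 0.56 (adjusted p = 0.64).

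D1 neurons nearly lacked Htr7, with a mean of 0.20 CPM. Against them the differences were 8.04 ± 0.54 in eccentric neurons (adjusted p = 9.60e-10), 6.48 ± 1.12 in cholinergic (8.39e-05), 6.14 ± 0.82 in Pvalb/Pthlh interneurons (3.13e-06) and 4.51 ± 0.57 in D2 neurons (2.15e-05). These are fitted values against a level near 0 and depend on the prior count. Sst/Npy/Nos1 interneurons did not pass (1.76 ± 3.17, adjusted p = 0.68).

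On the scale of CPM per kb of gene span, Htr2c in choroid plexus had the highest level of any receptor (78.6 CPM per kb), followed by Htr1b in D1 neurons (5.98). Htr1f in subicular neurons (4.00), Htr4 in dentate granule neurons (2.47) and Htr2c in Sst/Npy/Nos1 interneurons (2.23) came next. Htr7 in thalamic or habenular neurons (1.06), Htr2a in cortical neurons (0.754) and Htr1a in CA1 neurons (0.749) were lower (1.69 for Htr1a in the few pericytes or smooth muscle cells), and Htr5a did not exceed 0.193 CPM per kb. The order differs from that in CPM, and the short gene Htr1b stands higher on this scale. Dividing by gene span suits the data only if intronic reads were counted, which is not given. The exons of Htr1f cover 2579 bases and those of Htr1b 4724 bases, so the order depends on the divisor.

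The share of nuclei with at least 1 UMI was compared after each nucleus was thinned to 2000 UMIs, and shallower nuclei were left out. Htr4 was found in 48.5% to 56.4% of thinned dentate granule nuclei (89.7% to 92.9% before thinning), against 2.35% to 4.51% (3.24% to 6.88%) of hippocampal oligodendrocytes, whose median depth was 2980 to 3362 UMIs against 10000 to 11500. Htr2c was found in 49.6% to 55.9% of D2 nuclei and 43.8% to 49.2% of D1 nuclei, against 8.10% to 10.8% of oligodendrocytes in the same libraries. The receptors with short genes gave low shares even where their class stood out: Htr1b was found in 5.87% to 6.40% of thinned D1 nuclei (26.1% to 38.2% before thinning), against 1.66% to 2.62% of oligodendrocytes.

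Htr1f was found in 61.3% to 87.2% of subicular nuclei, against 5.53% to 9.59% of hippocampal oligodendrocytes, and Htr7 in 13.6% to 23.2% of thalamic or habenular nuclei, against at most 0.329%. For Htr2c in CA1 the share was 5.98% to 15.0% (24.4% to 49.4% before thinning), against 0.494% to 0.751% of hippocampal oligodendrocytes.

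**Figure D2:**
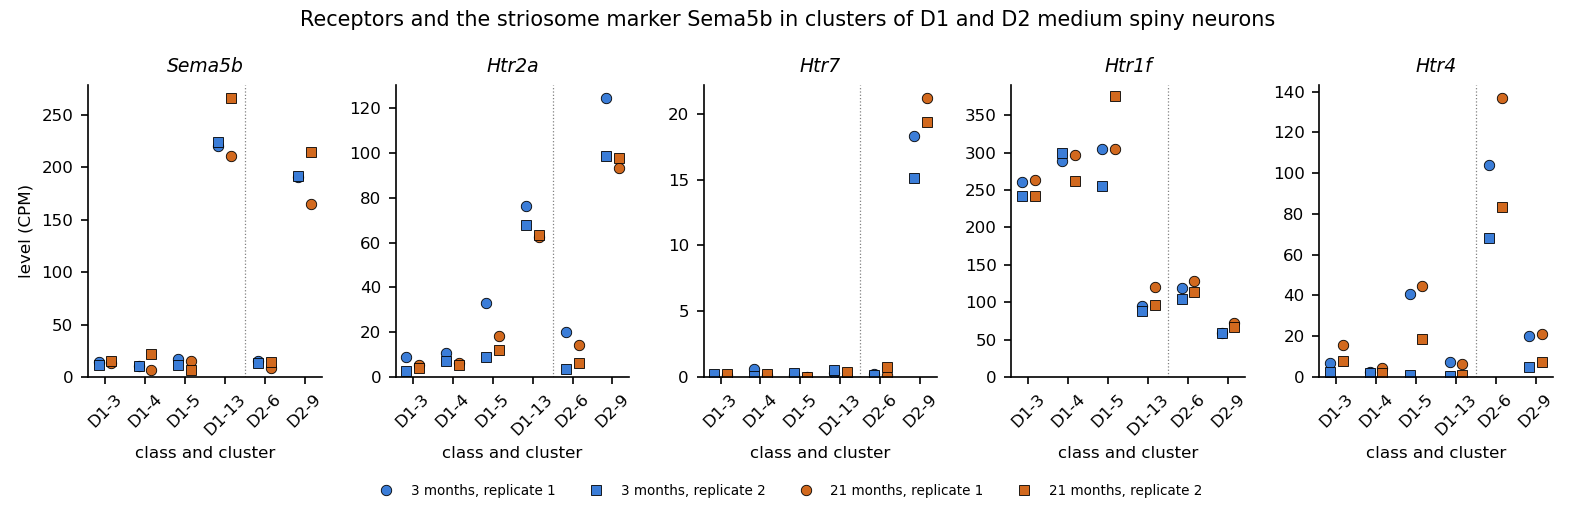
Levels in CPM of Sema5b, Htr2a, Htr7, Htr1f and Htr4 in the 4 D1 clusters and 2 D2 clusters of medium spiny neurons, with 1 point per library. D1 cluster 13 and D2 cluster 9, the clusters with high Sema5b, also have the highest Htr2a of their class, and Htr7 is seen almost only in D2 cluster 9.

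Within the classes of medium spiny neurons the receptors were not spread evenly, and the plot of levels by cluster shows where they lay. The clusters below were singled out after their values were seen and carry no test. D1 cluster 13 held Sema5b, a gene enriched in the patch (striosome) compartment, at 220, 224, 211 and 266 CPM, against 6.5 to 22.2 CPM in the other D1 clusters, and D2 cluster 9 held 190.5, 192, 165 and 215 CPM against 8.5 to 14.8 CPM in D2 cluster 6. D1 cluster 13 also held Oprm1, the mu opioid receptor and a second patch marker, at 114 to 141 CPM.

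Among the D1 and D2 clusters, Htr2a stood at 76.4, 67.8, 62.3 and 63.2 CPM in D1 cluster 13 against 2.9 to 33.1 CPM in the other D1 clusters, and at 124.5, 98.8, 93.1 and 97.7 CPM in D2 cluster 9 against 19.9, 3.34, 14.4 and 6.37 CPM in D2 cluster 6. No library of the other clusters reached the range of clusters 13 and 9. Htr7 in D2 neurons came from cluster 9 (18.4, 15.1, 21.2 and 19.4 CPM), while cluster 6 held 0.26, 0.12, 0.15 and 0.75 CPM, and D1 cluster 13 held at most 0.49 CPM.

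Htr1f was lower in both Sema5b-rich clusters than in the others of their class. It was at 95.3, 88.5, 121 and 95.9 CPM in D1 cluster 13 against 242 to 376 CPM in the other D1 clusters, and at 58.3 to 71.7 CPM in D2 cluster 9 against 104 to 128 CPM in cluster 6. Htr4 was at 20, 4.67, 21.0 and 7.43 CPM in D2 cluster 9 against 104, 68.4, 137 and 83.4 CPM in cluster 6. In D1 neurons cluster 13 held 7.55, 0.71, 6.26 and 1.08 CPM of Htr4, above cluster 4 in the first library of each age and below every other D1 cluster in the second. Cluster 5 held 40.7, 0.96, 44.5 and 18.6 CPM, the highest of the D1 clusters in every library except young library 2. That cluster differed in size between libraries, with 1258, 171, 1133 and 90 nuclei.

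The eccentric class also split when clustered at the finer resolution of 2.0. One cluster (24), with Drd2 at 586 to 736 CPM, held Htr7 at 173.5, 167, 219 and 182 CPM, Htr2a at 128, 117.5, 141 and 139 CPM and Htr4 at 366, 268, 398 and 357 CPM. The other (19), with Drd1 at 81.5 to 93.7 CPM, held Htr7 at 5.34, 5.39, 6.74 and 2.22 CPM, Htr2a at 12.1 to 17.0 CPM and Htr4 at 269, 177, 224 and 152 CPM. All 3 receptor genes were higher in the Drd2-rich cluster in each of the 4 libraries. Sema5b went the other way, at 330 to 469.5 CPM in cluster 24 against 686 to 786 CPM in cluster 19, so in the eccentric class high Htr2a did not go with high Sema5b. Oprm1 followed Sema5b, at 1.08 to 7.63 against 33.3 to 61.9 CPM. Kremen1 went with Htr2a, at 42.0 to 56.1 CPM in cluster 24 against 4.94 to 8.80 CPM in cluster 19. It was also high in D1 cluster 13 (39.9 to 64.1 CPM) and D2 cluster 9 (30.3 to 43.8 CPM).

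CA1 neurons formed 2 main clusters at the same resolution. Cluster 2, with 24.5% to 33.1% of the class, held Htr4 at 188, 233, 240 and 276.5 CPM against 91.4, 84.7, 70.0 and 88.5 CPM in cluster 1. It held Htr2c at 80.1, 81.1, 108 and 110.5 CPM against 24.0, 23.9, 48.3 and 51.6 CPM. Htr1a ran opposite, with 0.42, 1.60, 0.45 and 0.69 CPM in cluster 2 and 3.88, 3.69, 4.61 and 4.87 CPM in cluster 1. In the dentate gyrus, cluster 11 held the most Htr4 (625, 606, 676 and 641 CPM) and Htr2c (15.8, 24.6, 16.3 and 11.1 CPM) of the 5 granule clusters.

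**Figure D3:**
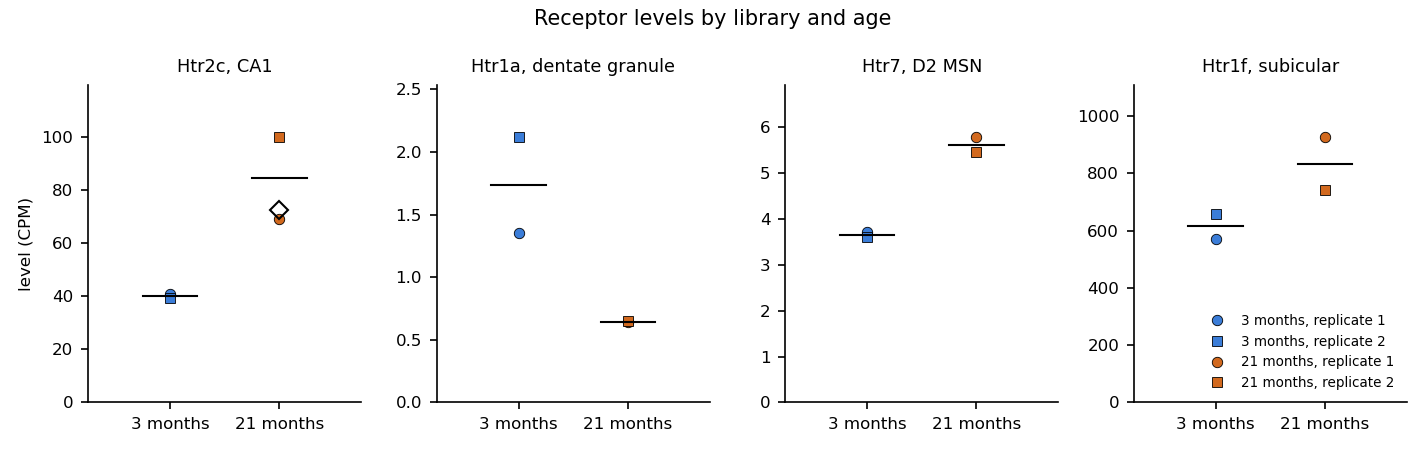
Levels in CPM by library at 3 and 21 months for Htr2c in CA1, Htr1a in dentate granule, Htr7 in D2 and Htr1f in subicular neurons, with points for libraries and bars for the mean of 2. The open diamond is the second old library for Htr2c in CA1 without the nucleus rich in Ttr, and the first 3 panels show the pairs that passed the test with age.

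The comparison of 21 with 3 months asks which receptors change with age in which cells. In the hippocampus 2 of 57 tested pairs of receptor and class passed (12 classes, 96 possible pairs), 1 higher and 1 lower, where 0.914% of all gene and class pairs passed. In the caudate putamen 1 of 53 passed (11 classes, 88 possible pairs), higher with age, where 1.07% of all pairs passed. At an unadjusted p under 0.05 there were 15 of the 57 and 5 of the 53 pairs, beside 10.6% and 12.2% of all gene and class pairs. The plot of levels by age shows the 3 pairs that passed.

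Htr2c rose with age in CA1 neurons. It stood at 40.9, 39.1, 68.8 and 99.6 CPM, and both old libraries lay above both young ones. The difference was 1.14 ± 0.14 (edgeR adjusted p = 0.0016), and CA1 was a class in which 0.992% of all genes passed. The old libraries held few CA1 nuclei, 267 and 195 against 823 and 1106.

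In old library 2, a single CA1 nucleus rich in Ttr held 116 of the 414 Htr2c UMIs (28.0%). When the nuclei with at least 10 Ttr UMIs were left out, 8 of them in this library, Htr2c in CA1 was 72.2 CPM there, Ttr fell from 99.6 to 6.30 CPM, and the difference was 0.90 ± 0.10 (adjusted p = 0.00029). This rule was chosen after seeing the data. Within cluster 1 alone the difference was 1.13 (adjusted p = 0.0042), and within cluster 2 alone, where both old libraries were also above both young ones, it was 0.51 (adjusted p = 0.055). Cluster 2 made up 28.6% and 24.5% of CA1 at 3 months and 33.1% and 32.0% at 21 months. The small CA1 cluster 33, with 13 nuclei in old library 2, held 535 CPM there.

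Htr1a fell with age in dentate granule neurons. It stood at 1.36, 2.12, 0.642 and 0.647 CPM, from 64, 213, 28 and 23 UMIs, and the young and old ranges did not overlap. The difference was -1.41 ± 0.28 (adjusted p = 0.017), in a class in which 4.11% of all genes passed. It did not pass without young library 2 (-1.05, adjusted p = 0.065), old library 1 (-1.40, 0.18) or old library 2 (-1.42, 0.12). The make-up of the class also moved with age: granule cluster 7 was 29.9% and 36.3% of the class at 3 months and 5.30% and 5.53% at 21 months, and cluster 6 was 32.4% and 29.4% against 53.1% and 53.9%. Within clusters 6, 8 and 12 the differences were -1.43 (adjusted p = 0.105), -0.54 (0.72) and -1.06 (0.41). No fit is given for clusters 7 and 11. Cluster 7 held 1.34, 2.94, 0 and 0 CPM of Htr1a, and cluster 11 held 0.26, 0.74, 0.55 and 0.65 CPM, where the ages overlapped. The part of the shift in clusters in the class difference was not tested.

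Htr7 rose with age in D2 neurons. It stood at 3.71, 3.60, 5.78 and 5.47 CPM, and young and old did not overlap. The difference was 0.60 ± 0.13 (adjusted p = 0.045), in a class in which 4.71% of all genes passed. The call was lost with DESeq2 (adjusted p = 0.077), with doublets kept (0.076) and without any one of the 4 caudate putamen libraries (0.10 to 0.15). Cluster 9, which held nearly all Htr7 of the class, was 19.7% and 24.5% of D2 nuclei at 3 months and 27.3% and 24.6% at 21 months, and within cluster 9 alone the difference was 0.28 (adjusted p = 0.34).

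**Figure D4:**
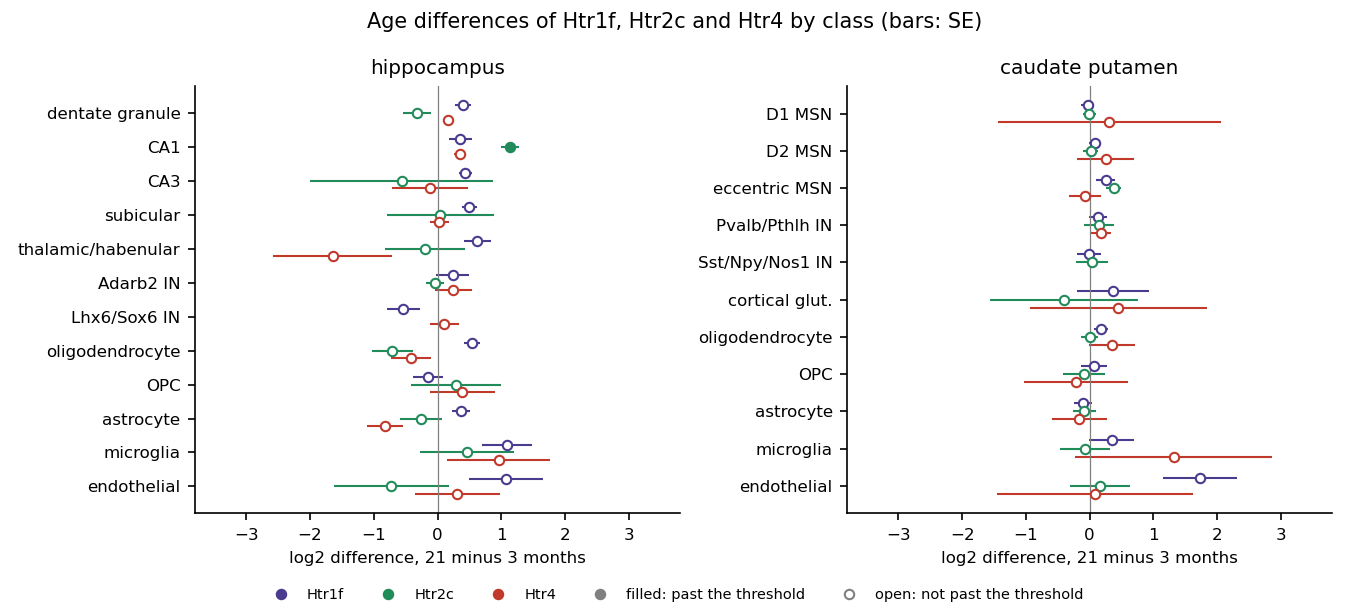
Log2 difference (21 minus 3 months) ± SE from edgeR for Htr1f, Htr2c and Htr4 in each class tested, with filled points for an adjusted p under 0.05. For Htr1f 10 of 12 hippocampal classes lie above 0 without passing, and Htr2c in CA1 is the only filled point.

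The plot of age differences shows 3 receptors measured in most classes. Htr1f was positive in 10 of 12 hippocampal classes, with a median of 0.42, and in 8 of 11 caudate putamen classes, with a median of 0.14. None passed in the main test, the lowest adjusted p being 0.072 in oligodendrocytes (0.53 ± 0.13). In subicular neurons the old values (925 and 742) lay above the young (572 and 660), with a difference of 0.50 ± 0.12 (adjusted p = 0.12). Dentate granule neurons gave 0.40 ± 0.12 (adjusted p = 0.14, and 0.018 with DESeq2), CA3 0.44 ± 0.11 (0.28) and CA1 0.36 ± 0.18 (0.52). The classes come from the same 4 libraries and are not independent of each other, and without young library 1 a total of 9 hippocampal pairs passed in place of 2, while the share over all gene and class pairs went from 0.914% to 3.72%.

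Htr4 was positive in 8 of 12 hippocampal classes and in 7 of 10 in the caudate putamen, with the lowest adjusted p of 0.11 in CA1 (0.36 ± 0.09). In the dentate gyrus, its highest class, the difference was 0.17 ± 0.07 (adjusted p = 0.25). In D2 neurons it was 0.25 ± 0.44 (edgeR adjusted p = 0.79). With the replicate number as a block Htr4 passed in D2 neurons and in CA1. In that setting 5.16% of all pairs passed in the caudate putamen and 1.69% in the hippocampus. Htr2c was positive in 4 and negative in 7 of 11 hippocampal classes, and in D1 and D2 neurons it differed by -0.0047 ± 0.10 and 0.021 ± 0.12. Htr2a was positive in 4 of 7 hippocampal and 3 of 7 caudate putamen classes, Htr1b in 3 of 6 and 1 of 7, Htr7 in 3 of 5 and 3 of 5, and Htr5a in 0 of 2 and 0 of 2.

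Whether the age effect itself differed between classes was tested as an interaction. None of 22 pairs passed in edgeR, where 0.811% of all gene pairs passed, and 5 had an unadjusted p under 0.05, beside 7.96% of all pairs. For Htr2c the age effect in CA1 minus that in the dentate gyrus was 1.45 ± 0.36 (adjusted p = 0.25), which passed with DESeq2 (1.42, adjusted p = 0.0046) and with the Ttr-rich nuclei left out (1.23, 0.026). For Htr1a it was 1.54 ± 0.40 (adjusted p = 0.066), and for Htr7 the D2 minus D1 age effect was 1.00 ± 0.57 (0.86). The age effects of Htr2c, Htr1a and Htr7 are therefore not shown to be particular to CA1, dentate granule or D2 neurons by the main test.

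**Figure D5:**
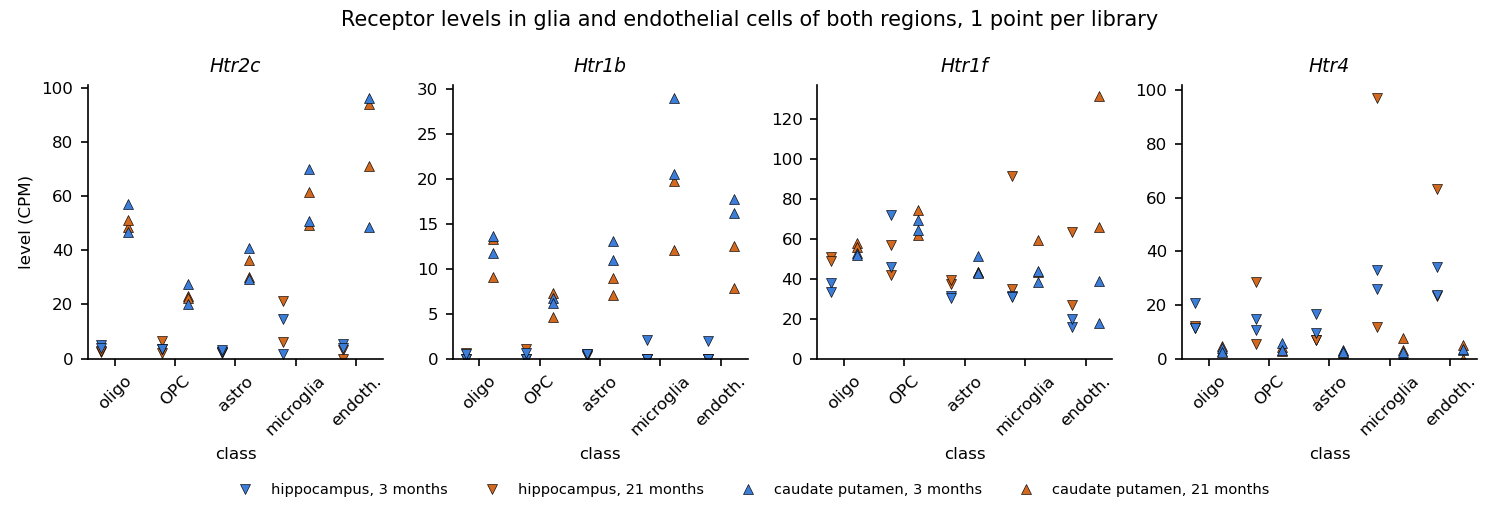
Levels in CPM of Htr2c, Htr1b, Htr1f and Htr4 in oligodendrocytes, precursor cells, astrocytes, microglia and endothelial cells of both regions, with 1 point per library. Htr2c and Htr1b are higher in the caudate putamen libraries and Htr4 is higher in most hippocampal ones.

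Glial and vascular nuclei carried low levels of the same receptors, and the plot of levels in glia shows that they differed by region. Of 20 tested pairs of receptor and class (5 classes, 40 possible pairs), 12 were higher and 3 lower in caudate putamen than in hippocampus, where 10.9% of all gene and class pairs passed. By class, 4 were higher and 1 lower of 5 in oligodendrocytes (12.9% of all genes passed), 4 and 1 of 5 in astrocytes (21.5%), 2 and 0 of 4 in microglia (5.14%), 1 and 1 of 3 in oligodendrocyte precursor cells (5.16%) and 1 and 0 of 3 in endothelial cells (1.65%). The median difference over the receptors was 1.99 in oligodendrocytes and 1.76 in astrocytes, against -0.018 and -0.0028 over all genes.

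Htr2c passed in all 5 classes. Oligodendrocytes held 56.9, 46.8, 48.7 and 51.1 CPM in the caudate putamen and 5.04, 3.87, 2.30 and 2.86 CPM in the hippocampus, with a difference of 3.90 ± 0.15 (adjusted p = 1.21e-07). The regions did not overlap. The differences were 3.67 ± 0.17 in astrocytes (4.18e-09), 2.37 ± 0.38 in microglia (0.0034), 2.54 ± 0.34 in precursor cells (6.81e-07) and 4.35 ± 0.46 in endothelial cells (0.00035). Without old hippocampal library 2, which held Ttr in every class, the differences were 4.00 in oligodendrocytes, 3.63 in astrocytes, 1.99 in microglia, 2.22 in precursor cells and 4.25 in endothelial cells. Without the first young or the first old caudate putamen library, they lay between 2.26 (microglia) and 4.58 (endothelial cells), and all passed. With doublets kept, the difference was larger, at 5.61 in oligodendrocytes and 5.77 in astrocytes.

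Htr1b was higher in caudate putamen oligodendrocytes by 5.06 ± 0.43 (adjusted p = 2.38e-05), astrocytes by 4.44 ± 0.29 (1.16e-07) and microglia by 5.49 ± 0.77 (0.00045). Microglia held 29.1, 20.6, 12.1 and 19.8 CPM in the caudate putamen. Hippocampal glia held few Htr1b UMIs, and these differences moved to 7.32 in oligodendrocytes without old hippocampal library 1, to 7.21 without young hippocampal library 2 and to 7.16 in microglia without the latter. Htr2a was higher by 1.99 ± 0.45 in oligodendrocytes (adjusted p = 0.012) and 1.76 ± 0.48 in astrocytes (0.016), and Htr1f by 0.34 ± 0.08 and 0.35 ± 0.10 (0.019 and 0.020). With DESeq2 the calls of Htr2a in astrocytes (adjusted p = 0.099), Htr1f in astrocytes (0.099) and Htr1f in oligodendrocytes (0.070) were lost. Each of these 4 calls was also lost without at least 1 library: Htr2a in oligodendrocytes without old hippocampal library 1, Htr2a in astrocytes without that library, young caudate putamen library 1 or old caudate putamen library 2, Htr1f in oligodendrocytes without either young caudate putamen library, young hippocampal library 2 or old hippocampal library 2, and Htr1f in astrocytes without old hippocampal library 1, young caudate putamen library 2 or old caudate putamen library 1.

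Htr4 went in the opposite direction, lower in the caudate putamen by 1.98 ± 0.24 in oligodendrocytes (log2 difference -1.98, adjusted p = 0.00024), 1.82 ± 0.25 in astrocytes (-1.82, 9.94e-05) and 1.97 ± 0.45 in precursor cells (-1.97, 0.0046). Hippocampal oligodendrocytes held 11.5, 20.6, 11.5 and 12.2 CPM and those of the caudate putamen 4.03, 2.51, 4.88 and 3.01 CPM. The call in precursor cells was lost without old hippocampal library 1 (-1.19, adjusted p = 0.33), in which 1 nucleus held 18 of 22 UMIs. With doublets kept the difference changed sign, to 0.20 in oligodendrocytes (adjusted p = 0.21) and 0.80 in astrocytes (0.15).

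Levels of neuron markers in glia also differed between regions. The general medium spiny neuron and D2 lists had higher median sums in the caudate putamen in every glial and endothelial class. The dentate granule list had higher median sums in the hippocampus in each, and the D1 list differed in direction between classes. The 7 general medium spiny neuron markers summed to a median of 1214 CPM (950 to 1569) in caudate putamen oligodendrocytes and 133 CPM (127 to 191) in hippocampal ones, against 9662 CPM in D1 and 10255 CPM in D2 neurons. All 7 had UMIs in every caudate putamen library of these oligodendrocytes. The 6 D2 markers summed to a median of 320 CPM (233 to 362) in caudate putamen oligodendrocytes and 6.0 CPM (3.8 to 7.9) in hippocampal ones. In microglia the general list stood at 1465 CPM in the caudate putamen and 169 CPM in the hippocampus, and the D2 list at 410 and 8.2 CPM. In astrocytes these medians were 1905 and 843 CPM, and 217 and 7.9 CPM. In endothelial cells they were 2480 and 251 CPM, and 298 and 12.3 CPM. In precursor cells they were 1324 and 744 CPM, and 167 and 3.4 CPM. The 7 dentate granule markers summed to 970 CPM (892 to 1049) in hippocampal and 762 CPM (688 to 823) in caudate putamen oligodendrocytes, ranges that did not overlap. Of this list, hippocampal oligodendrocytes held mostly Stxbp6 (573 to 757 CPM) and Prox1 (219 to 246 CPM). Glis3 stood there at 19.2 to 47.7 CPM and Trpc6 at 16.6 to 36.8 CPM. In D1 neurons of the caudate putamen this list summed to 147 CPM. The 7 D1 markers summed to a median of 186 CPM in caudate putamen and 22.6 CPM in hippocampal oligodendrocytes. They were also higher in caudate putamen microglia (268 against 47.0 CPM) and precursor cells (678 against 602 CPM). In endothelial cells they were alike (2558 and 2559 CPM), and in astrocytes they were lower in the caudate putamen (279 against 496 CPM). The D1 list summed to a median of 656 CPM in D1 neurons themselves, below both endothelial values. Of its genes, Ebf1 stood at 373 CPM in D1 neurons and at 3708 CPM in the highest other named class of the caudate putamen.

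As a share of the level in D2 neurons of the same library, caudate putamen oligodendrocytes held 10.4% to 13.6% for Htr2c, 28.6% to 45.6% for Htr1b, 49.3% to 55.6% for Htr1f, 7.0% to 15.8% for Htr2a and 4.59% to 4.69% for Htr4. The same share was 3.71% to 6.81% for Drd2, 4.80% to 7.70% for Rarb, 10.9% to 16.7% for Rgs9, 13.7% to 19.5% for Adora2a and 55.5% to 74.3% for Penk, all genes of medium spiny neurons. In the hippocampus, oligodendrocytes held 2.5% to 5.3% of the Htr4 level of dentate granule neurons, 74.5% to 90.8% of that of Htr1f and 87.3% to 212% of that of Htr2c. The Htr2c share divides by a level near 0, as granule neurons held 2.08 to 3.64 CPM. CA1 neurons held 39.1 to 99.6 CPM of Htr2c. The share of the granule level in oligodendrocytes was 2.49% to 5.33% for Glis3, 2.9% to 6.9% for Trpc6, 44.0% to 66.0% for Stxbp6 and 78.2% to 92.5% for Prox1, from the list of granule markers. The last 2 were not alike across glia: in hippocampal microglia Stxbp6 was at 5.29% to 16.2% and Prox1 at 14.4% to 32.3%. The part of free neuronal RNA in the glial levels was not tested.

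The age effect in glia did not pass in any pair, and its difference between regions passed in none of 20 pairs in edgeR, where 0% of all gene and class pairs passed, with 1 pair (Htr1f in astrocytes, -0.48 ± 0.20) at an unadjusted p under 0.05, beside 5.14% of all pairs.

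Of the other serotonin receptor genes, Htr1d, Htr2b, Htr3a, Htr3b, Htr5b and Htr6, none passed with age in either region (20 and 19 pairs tested in edgeR). Htr3a, which encodes the ion channel subunit, was a gene of Adarb2 interneurons (13.5 ± 3.32 CPM, n = 4), higher there than in Lhx6/Sox6 interneurons (adjusted p = 1.17e-06). Htr5b was higher in CA1 (7.45 ± 0.84 CPM) than in the dentate gyrus by 4.58 ± 0.26 (5.41e-16), and lower in CA3 than in CA1 by 5.40 ± 0.51 (log2 difference -5.40, 2.68e-10). Htr6, coupled to Gs, was higher in CA3 than in the dentate gyrus by 1.05 ± 0.26 (0.00092). Htr1d was highest in eccentric neurons (28.3 ± 5.55 CPM against 11.6 ± 1.86 CPM in D1), by 1.26 ± 0.14 (1.26e-07).

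Of the genes for serotonin synthesis, transport and breakdown (9 genes), 0 of 41 pairs passed with age in the hippocampus (0.914% of all pairs) and 2 of 39 in the caudate putamen (1.07%). These were Ddc, which encodes the decarboxylase of serotonin and dopamine synthesis, higher in oligodendrocytes by 0.94 ± 0.14 (adjusted p = 0.0081), and Tph2, which encodes the neuronal tryptophan hydroxylase, lower in astrocytes by 1.86 ± 0.37 (log2 difference -1.86, 0.042). Maoa was highest in endothelial cells (216 ± 40.5 CPM in hippocampus) and Maob was at 125 ± 6.51 CPM in hippocampal astrocytes. Slc22a3, a low-affinity uptake transporter, stood at 67.4 ± 7.83 CPM in eccentric neurons and was higher there than in D1 neurons by 1.32 ± 0.13 (1.03e-08).

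Of the 25 genes of G proteins, cyclases, phospholipases, GIRK channels and arrestins that carry receptor signals, 3 of 277 pairs passed with age in the hippocampus and 1 of 254 in the caudate putamen, where 0.914% and 1.07% of all pairs passed. These shares are close to or under those over all genes. The 3 were in dentate granule neurons: Adcy2 (0.30 ± 0.06, adjusted p = 0.019) and Plcb4 (0.86 ± 0.17, 0.025) rose and Arrb2 fell (-0.42 ± 0.09, 0.020), with a list median of 0.067 against -0.015 over all genes. Plcb4, a phospholipase of the Gq pathway, also rose in caudate putamen oligodendrocytes (0.87 ± 0.12, 0.0059). Between classes 77 of 125 pairs of the list passed in the caudate putamen, where 38.2% of all pairs passed, and 48 of 92 in the hippocampus, where 40% did. Gnal and Adcy5, the Golf subunit and the cyclase of striatal projection neurons, were lower in all 3 interneuron classes than in D1 neurons (Gnal by -2.50 ± 0.14, -1.83 ± 0.14 and -1.88 ± 0.15), whereas Gnas was higher (5.02 ± 0.17, 5.54 ± 0.18 and 4.53 ± 0.18, for Pvalb/Pthlh, Sst/Npy/Nos1 and cholinergic neurons in this order).

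For each receptor the genes with the most similar profile over the 33 classes of both regions were found by Pearson correlation of log2(CPM + 1), among 16116 genes. The classes share libraries and depth, so the values are a description. Htr1b was most like Npas4 (0.909), Egr1 (0.903) and Ankrd63 (0.879), of which the first 2 are activity-induced transcription factors. Htr1f was most like Pcnx2 (0.821) and Hs6st3 (0.781), and Htr4 most like Gabra5 (0.841), Grin2a (0.826) and Epha7 (0.826). Htr2a was most like Gm16070 (0.792), Crispld1 (0.790) and Gm28153 (0.769), Htr2c most like Selenoi (0.761), Gm34788 (0.758) and Vat1l (0.758), and Htr7 most like Gm13629 (0.805), Vwa5b2 (0.761) and Scn9a (0.758). For Htr2c and Htr7 none of the 3 was among the first 3 by Spearman correlation. Htr1a and Htr5a were below 10 CPM in all classes and were not compared.

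Some unnamed clusters carried high receptor levels. A hippocampal cluster of 857 nuclei led by Otx2os1 and Ebf1 held Htr2c at 437 CPM and Htr7 at 50.9 CPM. Another hippocampal cluster of 306 nuclei, led by Vwc2l and Kcnh8, held Htr1f at 475, Htr2c at 331 and Htr4 at 233 CPM, and one more of 132 nuclei, with Csf2rb2 among its leading genes, held Htr2a at 71.4 and Htr7 at 72.0 CPM. A caudate putamen cluster of 712 nuclei led by Chst9 and Npffr2 held Htr1f at 749 CPM, and one of 325 nuclei held Htr2c at 549 CPM. These are pooled over the libraries and were in no comparison, so a highest class above is the highest of the named classes.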

How the data were processed

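The deposited matrices held raw UMI counts per gene and nucleus from 10x single-nucleus libraries of nuclei sorted with Hoechst. The submitters' processing notes name Cell Ranger 4.0.0 and mm10, whereas the file headers name Cell Ranger 6.1.2 for 7 libraries and 7.0.0 for 1 (young caudate putamen library 2). Whether intronic reads were counted, and in the same way in every library, is not given in the sources used here. Both header versions occur within the young caudate putamen group, so its libraries may differ in processing. No barcode had under 500 UMIs.

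Barcodes with fewer than 500 genes (1307) or over 5% mitochondrial UMIs (4) and 10772 doublets called by Scrublet (2.55% to 15.6% per library) were left out. In young hippocampal library 2 the automatic Scrublet threshold would have called 71.1%, so the threshold was set there from the expected share of 16.2%, which called 15.6%. Each region was clustered (scanpy 1.11.5, Leiden clustering as implemented in igraph, 3000 variable genes, 40 components, 20 neighbours, resolution 1). Clusters were named from at least 3 detected markers. Counts were summed per class and library, with at least 20 nuclei, and tested with edgeR 4.0.16 (TMM, filterByExpr, robust quasi-likelihood fit) with Benjamini-Hochberg adjustment over all genes of each comparison at 0.05. Age in neurons was fitted on the 4 libraries of the region and in glia and endothelial cells on all 8. Programs were tested on simulated data first. Of 32285 gene identifiers, 32158 (99.6%) matched GENCODE vM21. Intervals cover counting error only.

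All 8 serotonin receptors were measured in every class, and the text gives levels for the classes where a receptor was high or was compared. Genes of the other lists were named where they passed the threshold, and other receptors with their levels. For each member that reached 10 CPM in a class, the 3 genes most alike were named, except 1 that is not reported here. The members, the lists and the limits for naming clusters were chosen with earlier results of these data known. Alternatives were DESeq2 1.42.0, its size factors in edgeR, no filter on low counts, doublets kept, resolution 2, the replicate number as a block, each region alone and each library left out. After seeing the data, nuclei with at least 10 Ttr UMIs outside choroid plexus were left out, and clusters of a class were fitted alone. The mossy cell comparison was not run because no cluster was named so.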

Additional observations from a re-analysis of the deposited data

How the results depend on the processing

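The counts of receptor pairs that passed with age were the least stable. In the hippocampus the 2 pairs became 4 with doublets kept, 9 with no filter on low counts and 4 with the replicate block, and 2 to 9 when 1 library was left out (9 without young hippocampal library 1). In the caudate putamen the 1 pair became 0 with DESeq2, 0 with doublets kept and 2 with the replicate block, and 0 to 1 when 1 library was left out. The interaction of age and class, 0 in edgeR, became 1 with DESeq2, 1 with doublets kept, 2 with no filter, 1 without the Ttr-rich nuclei and 0 to 2 with 1 library left out. Between classes the counts of 20 ranged over 16 to 20 in the hippocampus and 18 to 26 in the caudate putamen, the 15 between regions over 12 to 21, and the interaction of age and region stayed at 0 in each setting run. With doublets kept, the Htr4 difference between regions changed sign to 0.80 in astrocytes and 0.20 in oligodendrocytes. Shares over all gene pairs moved too. The main test gave 0.914% and 1.07% for age in hippocampus and caudate putamen, 0.811% for age and class and 10.9% between regions. With doublets kept these became 0.993%, 1.03%, 1.18% and 27.1%, and the share between caudate putamen classes went from 38.2% to 44.8%. With no filter, age in the hippocampus gave 2.07% and age and class 1.27%. With DESeq2, age in the caudate putamen gave 1.5% and age and class 0.64%. Causes were not tested. A group left with 1 library was assumed to vary like the others. Same-numbered libraries deviated together with correlations of 0.07 to 0.70 over classes of the caudate putamen and -0.27 to 0.38 in the hippocampus. The labels do not say that the numbers pair libraries, so the main test did not treat same-numbered libraries as pairs. In D1 and D2 neurons these correlations were 0.70 and 0.66. The block added Htr1f (0.33) and Htr4 (0.36) in CA1 and Htr4 in D2 neurons (0.24), while the share over all genes went to 1.69% in the hippocampus and 5.16% in the caudate putamen. Htr1a and Htr5a, with few UMIs, could be tested with age in only 2 classes per region or fewer.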
